A study of Mus musculus with 12 samples.

Results

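The lysyl oxidases and elastic fibre genes described here are 10 of the 20660 genes that the array probes could be matched to. They were taken by name, in a choice made with earlier results of these data known: the lysyl oxidase genes Lox, Loxl1, Loxl2, Loxl3 and Loxl4, the elastin gene Eln, and Emilin1, Emilin2, Fbn1 and Mfap5, whose products build or line the fibre. They were represented by 15 probes, 2 each for Lox, Loxl1 and Loxl4, 3 for Loxl2 and 1 each for the others. After the filter on dim probes 9 of the 10 were tested, and Emilin1, whose Cy3 signal did not rise well above background on the 12 arrays, was not.

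The tumours were mammary gland tumours of mice on the FVB background with the MMTV-wnt1 transgene, in which a mouse mammary tumour virus promoter drives Wnt1, a secreted growth factor, in the epithelium of the gland. The transgene was shared by all 4 groups, so there was no normal mammary tissue among the samples used here. The KO groups were Rarb -/- and the WT groups Rarb +/+, Rarb being the gene of retinoic acid receptor beta. The labels name no promoter or cell type that would restrict the loss of Rarb. From 3 KO tumours (numbered 1, 3 and 4) and 3 WT tumours (numbered 1, 2 and 3), epithelium and stroma were cut apart on stained sections with a laser capture microscope. Each of the 12 RNA samples was labelled with Cy3 and hybridised with a Cy5-labelled universal mouse reference RNA, so each value is a log2 ratio of tumour sample over reference, with 3 arrays in each of the 4 combinations of genotype and compartment. The sources used here give neither the age of the mice nor whether the tumours are from different mice, and p-values therefore reflect only how far these samples spread.

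Lysyl oxidases are secreted copper-dependent enzymes that oxidise lysine side chains of collagen and tropoelastin, and the resulting aldehydes react to crosslink the fibres. Elastic fibres form when tropoelastin is laid onto a scaffold of fibrillin microfibrils, to which emilins and microfibril-associated proteins bind. In mammary tumours fibroblasts are the best known source of these proteins, and collagen crosslinking by lysyl oxidases is known for stiffening the stroma.

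Of the members with the largest changes between groups, Fbn1 and Emilin2 had a promoter in the RefSeq promoter table (GRCm38.p6), and that of Loxl4 is shown beside them. The Loxl4 ratio hardly varied, but its probe was above background on only 3 of the 12 arrays, so Loxl4 is not shown to be unchanged. In all, 4 of the 10 members matched that table. The 250 bases before the start site are given 5′ to 3′ on the gene's own strand, which is the minus strand for all 3, at chr2:125506439-125506688 for Fbn1, chr17:71311557-71311806 for the upstream start of Emilin2 and chr19:42612807-42613056 for Loxl4. Capitals mark the GC box GGGCGG or its reverse complement.
Fbn1: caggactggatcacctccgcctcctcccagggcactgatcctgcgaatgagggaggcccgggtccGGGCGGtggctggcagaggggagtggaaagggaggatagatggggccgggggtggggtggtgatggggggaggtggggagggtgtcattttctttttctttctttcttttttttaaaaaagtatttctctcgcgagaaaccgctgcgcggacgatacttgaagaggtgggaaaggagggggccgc
Emilin2: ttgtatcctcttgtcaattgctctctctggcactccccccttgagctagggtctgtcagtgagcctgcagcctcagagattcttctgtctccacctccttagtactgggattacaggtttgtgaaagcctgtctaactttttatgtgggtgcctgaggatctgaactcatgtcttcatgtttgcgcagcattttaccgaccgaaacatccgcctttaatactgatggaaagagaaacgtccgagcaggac
Loxl4: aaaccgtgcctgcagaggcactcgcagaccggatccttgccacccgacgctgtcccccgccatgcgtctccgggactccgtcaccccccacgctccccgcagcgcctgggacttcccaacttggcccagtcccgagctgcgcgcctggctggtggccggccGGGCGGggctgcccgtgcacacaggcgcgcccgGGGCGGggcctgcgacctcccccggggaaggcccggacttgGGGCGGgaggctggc
The Fbn1 window held 1 GC box, from 185 to 180 bases before the start, and had a GC content of 59.2%. The Loxl4 window held 3, at 89 to 84, 56 to 51 and 15 to 10 bases before the start, with a GC content of 76.0%. The Emilin2 window shown held none, with a GC content of 48.4%. The window before the downstream start of Emilin2, at chr17:71311012-71311261 and not printed, held 1, from 234 to 229 bases before that start, with a GC content of 57.6%. The median GC content of all promoters in the table was 52.4%. On both strands, GGGCGG was found in 32.7% of the 32851 promoter windows of this length, TATAAA in 12.4%, CCAAT in 33.8%, the AP-1 motif TGANTCA in 6.75% and AGGTCA, the motif that retinoid receptors bind as repeats, in 14%. None of the last 4 motifs was in the 3 windows printed, which says only that these letters were not there.

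In stroma, Emilin2, Loxl1 and Fbn1 were higher in KO than in WT tumours, by 12.5, 6.77 and 5.55 times, and passed the test, 3 of the 9 tested members, where 6.46% of all 13275 genes passed in either direction and 3.52% were higher. In tumour epithelium none of the 9 passed, where 1 of all genes (0.00753%) did. Within KO tumours 8 of 9 were higher in stroma than in epithelium, against 20.2% of all genes changed and 10.2% higher, and within WT tumours none of the 9 passed, where again 0.00753% of all genes did. The 8 in KO tumours include Lox, which was at background in epithelium, and without Lox and Loxl4 the count was 7 of 7. No member's genotype difference was shown to differ between the compartments once adjusted over all genes. Because the members were chosen with earlier results of these data known, the shares of all genes describe these counts and do not test them.

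Some facts of the series bear on every value. The share of probes with a Cy3 signal well above background was 36.0% to 46.3% per array, and no spot was saturated. All epithelial arrays lay on 1 slide and all stromal arrays on the other, and in each slide KO arrays filled the first row and WT arrays the second, so that slide and compartment, and row and genotype, cannot be told apart. In the reference channel the standing probes of the 9 members, each gene's brightest, differed between KO and WT by -0.22 to 0.10 on the log2 scale in stroma and by -0.12 to 0.43 in epithelium, and between stroma and epithelium by -0.63 to 0.15. For 8 of the 9 the reference was lower on the stromal than on the epithelial arrays. It was also lower in KO than in WT stroma for 8 of the 9, and in KO than in WT epithelium for 1. A lower reference raises a ratio of sample over reference. The part of this in the ratios was not tested. The standing Rarb probe overlapped between genotypes in both compartments, from -1.13 to 1.36 in KO and -0.76 to 0.85 in WT epithelium and from 0.57 to 2.09 in KO and -0.29 to 1.37 in WT stroma. The sources used here do not place it inside or outside the deleted segment, so it checks no label. The other Rarb probe was not above background on any array. The brighter of the 2 Wnt1 probes was 7.05 to 7.67 in all 6 epithelial samples and 6.53 to 7.20 in WT stroma, but 2.90 to 3.80 in KO stroma. The other Wnt1 probe read 0.96 to 1.44 in KO and 1.77 to 3.28 in WT epithelium, without overlap, and 1.53 to 3.50 in WT stroma, and was not above background on the KO stroma arrays.

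Lox encodes the founding lysyl oxidase, secreted as a proenzyme. Its brighter probe read -0.17, -1.26 and -1.11 in the stroma of KO tumours 1, 3 and 4 and -2.5, -2.56 and -1.31 in that of WT tumours 1, 2 and 3. It read -2.91, -3.40 and -2.92 in KO epithelium and -3.58, -2.67 and -3.06 in WT epithelium. KO stroma was highest, WT stroma came next without overlap, and both epithelial groups lay under both stromal groups and overlapped each other. It was well above background on none of the 6 epithelial arrays and on 2 of 3 in WT stroma, so the epithelial values mark only how dim the probe was, and the probe passed the filter through its stromal signal alone. KO stroma was therefore at least 3.04-fold above KO epithelium. For WT tumours the same reckoning gave 1.43-fold, which is no strict bound, as WT stroma was above background on only 2 of 3 arrays. Both figures use Cy3 signals alone, after loess and Aquantile, and are open to dye bias. The limma adjusted p, 0.00723 in KO and 0.499 in WT tumours, are those of the ratios and not of these figures. They set stroma against epithelial values at background. Between genotypes in stroma Lox differed by 1.28 ± 0.40 (log2, SE) or 2.42-fold without passing (limma adjusted p = 0.0847). It passed without WT stroma array 3 (1.68, limma adjusted p = 0.0293), and with Agilent's processed signals the difference was 2.88 (limma adjusted p = 0.133). The other Lox probe was above background on all 3 KO stroma arrays, on 1 KO epithelial array and on no WT array. On it KO stroma was at least 2.29-fold above WT stroma. This probe passed the filter only through KO stroma, so the bound describes it and adds no support to the difference above.

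Loxl1 encodes the family member best known for the renewal of elastic fibres. Its standing probe read 2.05, 1.78 and 1.07 in KO stroma and -1.04, -2.11 and -0.24 in WT stroma. All 3 KO stroma samples were above the reference and all 3 WT stroma samples below it. The epithelial values were -2.35, -1.99 and -2.95 in KO and -3.09, -1.80 and -3.27 in WT, above background on 2 of 3 arrays in each. KO stroma stood apart, while WT stroma overlapped both epithelial groups through WT tumour 2. KO exceeded WT stroma by 2.76 ± 0.52 (log2, SE), 6.77-fold, with a limma adjusted p of 0.0166. The call was lost without KO stroma array 1 (2.55, limma adjusted p = 0.0586), without WT stroma array 1 (2.81, limma adjusted p = 0.0604) and with Agilent's processed signals (3.26, limma adjusted p = 0.0805). Within KO tumours stroma exceeded epithelium by 4.06 ± 0.57, 16.7-fold (limma adjusted p = 0.00587). The other Loxl1 probe went the same way by less, at 1.94, 0.98 and 0.44 in KO stroma against 0.13, -0.21 and 0.40 in WT stroma. That probe's reference signal was above background on 1 of the 12 arrays, so its ratios have a poorly measured denominator.

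Loxl2, Loxl3 and Loxl4 encode the enzymes that carry scavenger receptor domains in front of the catalytic domain. The standing probe of Loxl2 read 4.49, 4.44 and 4.31 in KO stroma, the tightest group of any member tested there, and 1.52, 0.60 and 2.69 in WT stroma. In epithelium it read 0.15, 1.03 and -1.89 in KO and 0.43, 1.64 and -1.11 in WT. KO stroma lay above every other sample, and the other 3 groups overlapped. The KO stroma excess over WT stroma was 2.81 ± 0.82 (log2, SE), 7.02-fold, and missed the threshold (limma adjusted p = 0.0697). It passed when only the 6 stromal arrays were fitted (limma adjusted p = 0.0478). Stroma exceeded epithelium in KO tumours by 4.65 ± 0.90, 25.1-fold (limma adjusted p = 0.0158). That call was lost without KO tumour 1 (4.81, limma adjusted p = 0.0666) or KO tumour 4 (3.87, limma adjusted p = 0.0808), and without KO tumour 3 the value was 5.27.

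The 3 Loxl2 probes disagreed. The next probe was above background on all 12 arrays in both channels, yet it read 0.63, -0.13 and 0.29 in KO stroma and 0.03, 0.08 and -0.12 in WT stroma, a difference of 0.26 in place of 2.81. Its values for KO and WT stroma overlapped. Stroma minus epithelium in KO tumours was 0.86 on it. The last Loxl2 probe was not above background on any array and differed by -0.01 between the stromal groups. With the mean of the probes that passed the filter, the KO excess in stroma was 1.54 for Loxl2 and 1.89 for Loxl1. Which transcripts or exons the probes lie in was not analysed here.

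**Figure D1:**
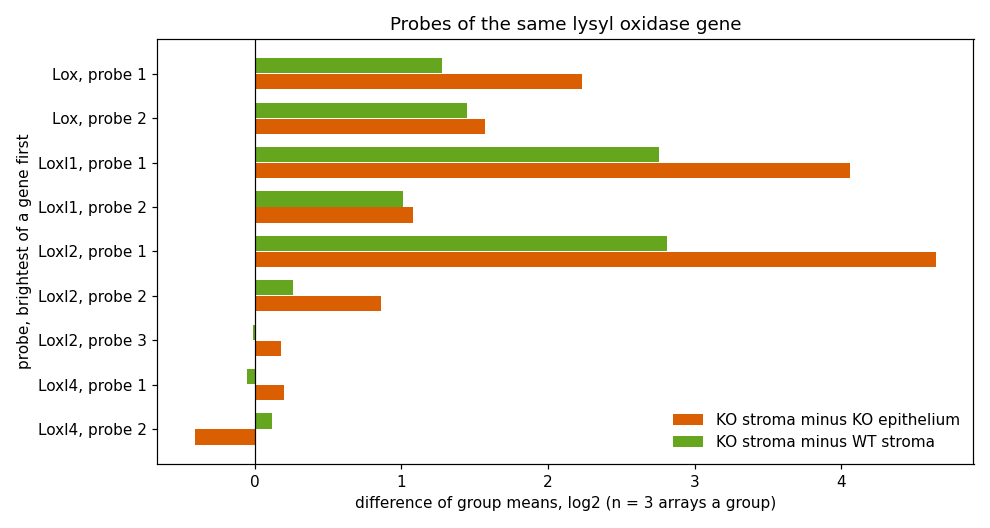
Bars give the difference of group means on the log2 scale (3 arrays a group) for each probe of the lysyl oxidase genes with over 1 probe, green for KO stroma minus WT stroma and orange for KO stroma minus KO epithelium. The probes of Loxl2 differ most, at 2.81 against 0.26 and -0.01 for KO minus WT stroma. Both Lox probes give similar green bars, 1.28 and 1.45. Their orange bars are 2.23 and 1.57, set against KO epithelial values largely at background.

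Loxl3 read 1.92, 0.05 and 1.93 in KO stroma and -0.05, -1.03 and 1.29 in WT stroma. These groups overlapped, with KO tumour 3 well under the other KO tumours and WT tumour 3 above it. In epithelium it read -1.36, -1.35 and -1.19 in KO and -1.04, -1.30 and -0.54 in WT, with every sample below the reference. The genotype difference in stroma was 1.23 (95% interval -0.09 to 2.54) and did not pass (limma adjusted p = 0.269). Stroma exceeded epithelium in KO tumours by 2.60 ± 0.43 (SE), 6.07-fold (limma adjusted p = 0.0101), a call lost without KO tumour 1 (2.26, limma adjusted p = 0.056) or KO tumour 4 (2.34, limma adjusted p = 0.0594), and without KO tumour 3 the value was 3.20. Loxl4 was near its background throughout, above it on 1 array each of KO epithelium, WT epithelium and WT stroma and on no array of KO stroma. Its ratios ran from -0.88 to -0.05 over all 12 arrays, all 4 groups overlapped, and KO and WT stroma differed by -0.05 (95% interval -0.58 to 0.49). The other Loxl4 probe was above background on 1 array, that of KO epithelium 3, at 1.07.

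**Figure D2:**
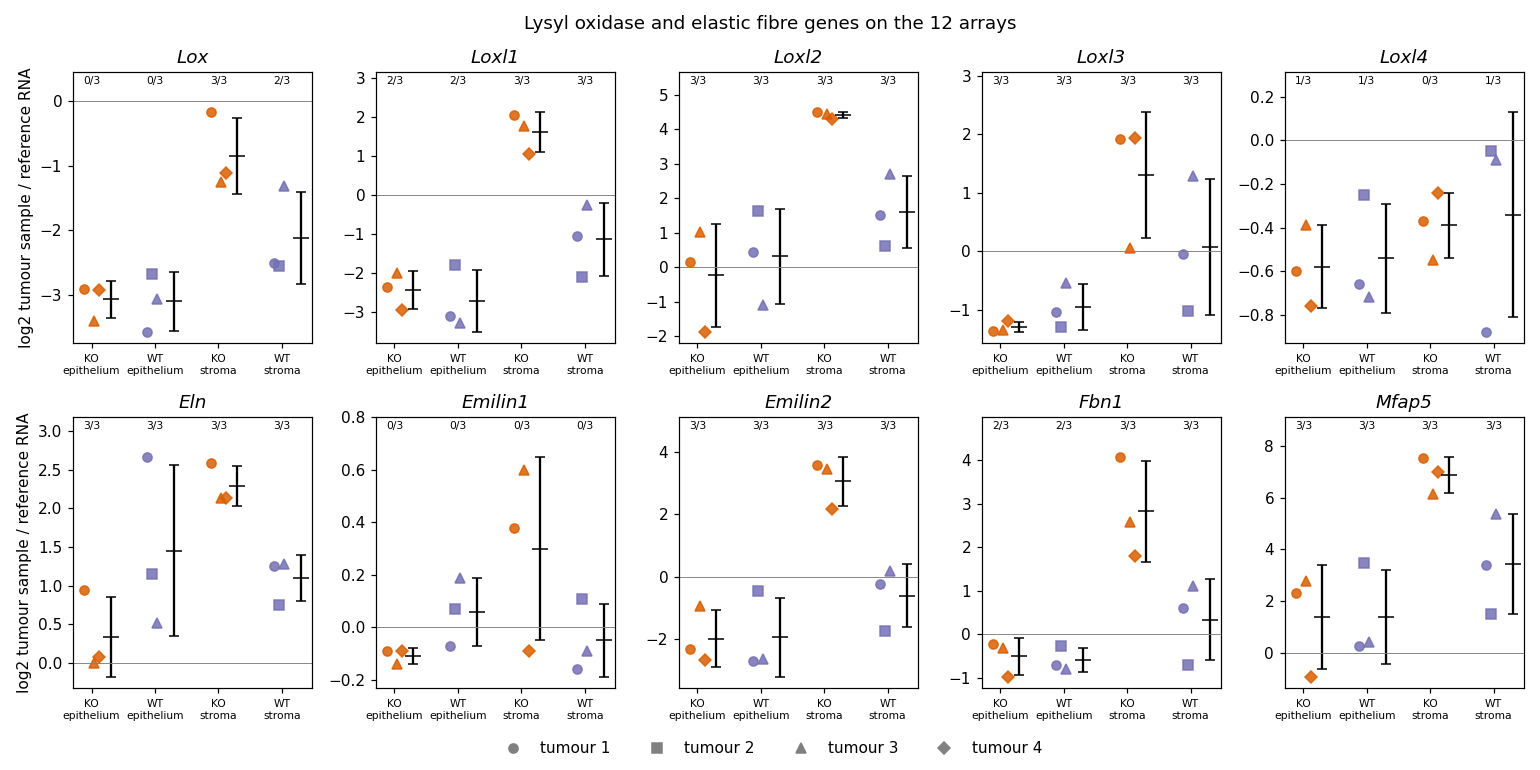
Each panel plots the log2 ratio of tumour sample over reference RNA for a member's standing probe, with KO arrays in orange and WT arrays in violet, marker shape giving the tumour number and black bars the mean ± SD of 3 arrays. The fraction over a group counts its arrays with Cy3 well above background, and axes differ between panels because levels of different probes are not comparable. KO stroma lies apart from all other samples for Lox, Loxl1, Loxl2, Emilin2, Fbn1 and Mfap5.

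Eln encodes tropoelastin, the rubber-like core of the fibre. It read 2.59, 2.13 and 2.14 in KO stroma, 1.25, 0.75 and 1.28 in WT stroma, 0.94, -0.01 and 0.07 in KO epithelium and 2.67, 1.15 and 0.52 in WT epithelium. After KO stroma, WT epithelium had the next highest mean, at 1.45 ± 1.11 (SD, n = 3), through WT tumour 1, and overlapped all 3 other groups. KO exceeded WT stroma by 1.19 ± 0.47 (SE) without overlap and without passing (limma adjusted p = 0.171). In epithelium the direction was the opposite, with KO lower by a log2 change of -1.12 (95% interval -2.16 to -0.07, limma adjusted p = 0.615) and overlapping groups. Stroma exceeded epithelium in KO tumours by 1.96 ± 0.38 (SE), 3.88-fold (limma adjusted p = 0.0162), while in WT tumours the difference was -0.35 (limma adjusted p = 0.873). The KO call was lost without KO tumour 1 (2.11, limma adjusted p = 0.0584), 3 (1.87, limma adjusted p = 0.0762) or 4 (1.90, limma adjusted p = 0.0773). In WT tumours the sign turned without WT tumour 1, to 0.18.

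Fbn1 encodes fibrillin-1, the main microfibril protein. It read 4.07, 2.58 and 1.79 in KO stroma and 0.60, -0.69 and 1.12 in WT stroma. In epithelium all 6 samples were below the reference, at -0.23, -0.30 and -0.98 in KO and -0.70, -0.27 and -0.80 in WT, above background on 2 of 3 arrays in each. KO stroma overlapped no other group, and WT stroma overlapped both epithelial groups because of WT tumour 2. KO exceeded WT stroma by 2.47 ± 0.57 (log2, SE), 5.55-fold, with a limma adjusted p of 0.0317. That call was lost without KO stroma array 1 (1.84, limma adjusted p = 0.0828), KO 3 (2.59, limma adjusted p = 0.0647), WT 1 (2.60, limma adjusted p = 0.0888) or WT 2 (1.95, limma adjusted p = 0.0934), and with Agilent's processed signals (3.29, limma adjusted p = 0.0783), median centring (2.15, limma adjusted p = 0.0567) or the stromal arrays alone (limma adjusted p = 0.107). Within KO tumours stroma was 9.98-fold above epithelium (3.32 ± 0.49 on the log2 scale, SE, limma adjusted p = 0.00692), a call kept in all 13 settings in which it could be tested, with a value of 5.0 under Agilent's processed signals. Aquantile, the mean of kept probes (Fbn1 had 1) and a WT tumour left out, which are among these settings, could not move the value.

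Emilin2 encodes a glycoprotein of the border between elastin and microfibrils. It read 3.56, 3.44 and 2.15 in KO stroma against -0.23, -1.74 and 0.17 in WT stroma. In epithelium it read -2.32, -0.95 and -2.67 in KO and -2.70, -0.47 and -2.64 in WT, all above background and all below the reference. KO stroma lay apart, and the other 3 groups overlapped. The excess of KO over WT stroma was 3.65 ± 0.73 (log2, SE), 12.5-fold (limma adjusted p = 0.0198). It missed the threshold without KO stroma array 1 (3.39, limma adjusted p = 0.0682), KO 3 (3.45, limma adjusted p = 0.0556), WT 1 (3.83, limma adjusted p = 0.0625) or WT 2 (3.08, limma adjusted p = 0.0625), and with median centring (3.21, limma adjusted p = 0.0508). Stroma exceeded epithelium in KO tumours by 5.02 ± 0.77, 32.5-fold (limma adjusted p = 0.00771), in all 14 settings. Among these, Aquantile, the mean of kept probes (Emilin2 had 1) and a WT tumour left out could not move the value. Emilin1, the related gene, gave no usable level: neither channel of its probe rose well above background on the 12 arrays.

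Mfap5 encodes a small glycoprotein that binds fibrillin. It read 7.52, 6.13 and 6.97 in KO stroma and 3.41, 1.51 and 5.37 in WT stroma, without overlap. In epithelium it read 2.32, 2.78 and -0.93 in KO and 0.26, 3.48 and 0.43 in WT, so that both epithelial means were 1.39, with SDs of 2.02 and 1.81 (n = 3 each). WT stroma overlapped both epithelial groups. The excess of KO over WT stroma was 3.44 (95% interval 0.75 to 6.13), 10.9-fold, without passing (limma adjusted p = 0.123). Within KO tumours stroma was 44.7-fold above epithelium (5.48 ± 1.35, SE, limma adjusted p = 0.0329). That call was lost without KO tumour 1 (5.63, limma adjusted p = 0.117), KO 3 (6.55, limma adjusted p = 0.0639), KO 4 (4.27, limma adjusted p = 0.14) or WT 1 (5.48, limma adjusted p = 0.056).

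Set side by side for KO against WT stroma, the members had a median log2 difference of 2.47, against -0.01 over all genes, and 8 of the 9 were positive. Groups did not overlap for 7 of the 9, all but Loxl3 and Loxl4, where 26.2% of all genes had groups that did not overlap. Of all genes 467 were higher and 390 lower. With median centring in place of loess this was 49 and 153, and with Agilent's processed signals 268 and 287. The members' median difference was then 2.15 and 2.88. It was 1.54 with the mean of kept probes, the lowest of all settings, 1.87 with no filter and 1.84 without KO stroma array 1.

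In epithelium 0 of 9 members passed limma's test between genotypes, where 0.00753% of all genes (1 gene) did. At an unadjusted p under 0.05 there was 1 member, Eln, where 8.06% of all genes had such a p. The median member difference was -0.04 and that of all genes 0.03, and no member's groups were without overlap, against 14% of all genes. The intervals were wide. For Mfap5 the 95% interval ran from -2.69 to 2.69, for Loxl2 from -2.38 to 1.27 and for Emilin2 from -1.65 to 1.57, so for these 3 a difference as large as their own in stroma lay outside the interval, and a difference of 1 log2 unit lay inside it. Lox was below background in both groups, and its ratio there has no meaning as a level.

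Over all 6 tumours, with each tumour's stroma set against its own epithelium, 7 of the 9 members were higher in stroma in limma's test, where 15.1% of all genes passed and 8.44% were higher. They were Lox, Loxl1, Loxl2, Loxl3, Emilin2, Fbn1 and Mfap5, and Eln (0.80 ± 0.27, SE, limma adjusted p = 0.0932) and Loxl4 (0.20 ± 0.16, SE, limma adjusted p = 0.438) did not pass. Mfap5 differed by 3.76 ± 0.95 (SE, limma adjusted p = 0.0434) and Emilin2 by 3.18 ± 0.54 (SE, limma adjusted p = 0.0136). With Agilent's processed signals Loxl1 gave 3.94 in place of 2.83 and Fbn1 3.36 in place of 2.13, and with the mean of kept probes Loxl1 gave 1.78 and Loxl2 1.76, all with limma adjusted p of 0.00868 to 0.026. Lox and Loxl4 were not measured above background in every group, and of the 7 members that were, 6 were higher. The calls of Lox, Loxl1, Loxl3, Emilin2 and Fbn1 held in every setting in which those genes could be tested, among them Aquantile, which could change nothing. Loxl2 (2.97, limma adjusted p = 0.0271) lost its call without KO tumour 1 (3.04, limma adjusted p = 0.0723), KO 3 (3.28, limma adjusted p = 0.051), KO 4 (2.58, limma adjusted p = 0.081) or WT 1 (3.01, limma adjusted p = 0.0732). Mfap5 lost it without any single tumour except WT tumour 2, with values from 3.04 to 4.29 and limma adjusted p from 0.0648 to 0.119, and also with Agilent's signals (limma adjusted p = 0.0652), median centring (limma adjusted p = 0.0533) and no filter (limma adjusted p = 0.0623). Eln passed without WT tumour 1 (1.07, limma adjusted p = 0.0434). Calls that stayed moved to 3.83 for Emilin2 and 4.76 for Mfap5 without WT tumour 2, and to 2.34 for Loxl2 without WT tumour 3.

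The tumours did not behave alike. Stroma was above epithelium for 9 of 9 members in KO tumour 1, 8 in KO 3, 9 in KO 4, 7 in WT 1 and 9 in WT 3, but for 3 of 9 in WT tumour 2. The median member difference was 4.30, 2.88 and 3.12 in KO tumours 1, 3 and 4, 1.09 in WT 1 and 1.92 in WT 3, and -0.40 in WT 2, while the median of all genes lay between -0.07 and 0.08 in each tumour. Loxl3 was higher in stroma in all 6 tumours, as were 8.06% of all genes, by 0.28 in WT tumour 2. Lox had the same sign in all 6, but against epithelial values at background, so its sign in a single tumour carries no information where stroma was dim too. In that tumour Mfap5 was lower in stroma by a log2 difference of -1.97, Emilin2 of -1.27 and Loxl2 of -1.04. Its mean over the 7 fibroblast marker genes was 1.34 in epithelium and 0.71 in stroma, and that over 3 T cell genes was 4.29 in stroma, against at most 0.64 on any other array. The part of these in the result was not tested.

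**Figure D3:**
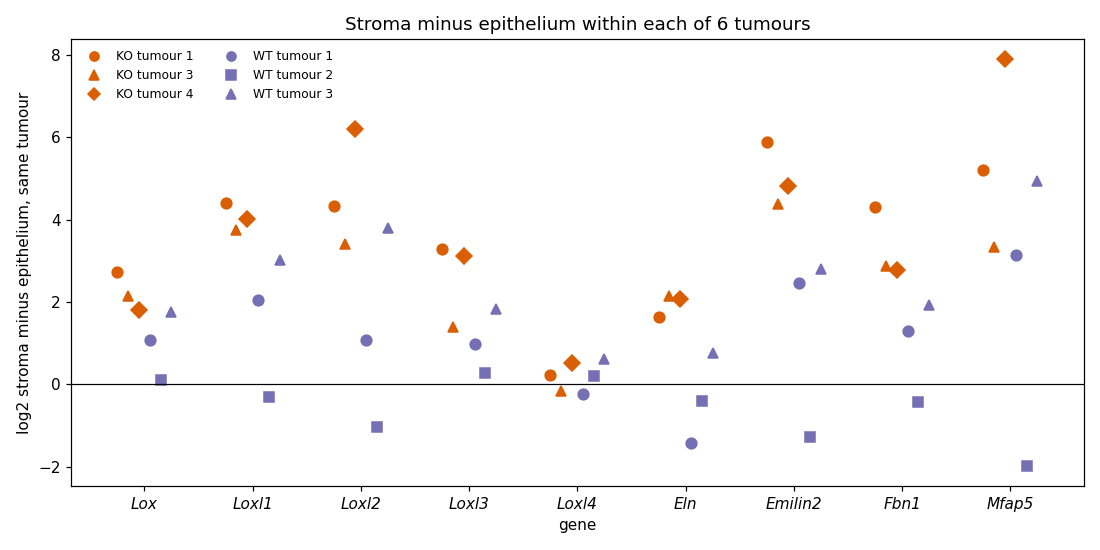
Points give stroma minus epithelium of the same tumour, on the log2 scale, for the 9 tested members, with KO tumours in orange and WT tumours in violet and shapes for the tumour number. KO tumours lie above 0 for all members but Loxl4, and WT tumour 2 (violet squares) lies below 0 for 6 of the 9.

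Within the 3 KO tumours 8 of 9 members were higher in stroma, all but Loxl4, with the same 8 free of overlap, against 37% of all genes without overlap. Leaving out Lox and Loxl4, each at background in 1 of these groups, 7 of 7 were higher. The median over the 9 was 3.32, against -0.04 over all genes. With Agilent's processed signals the differences of Loxl1 (5.34), Loxl3 (3.47), Eln (2.66) and Fbn1 (5.0) were over 1.5 times larger as folds than in the fit above, and with the mean of kept probes those of Loxl1 (2.57) and Loxl2 (2.76) were smaller by more than that, all still called. Within the 3 WT tumours 0 of 9 passed limma's test, where 0.00753% of all genes did. There 3 members, Lox, Loxl1 and Loxl3, had an unadjusted p under 0.05, as did 8.78% of all genes, and the median was 1.03 against 0.02 over all genes. Of all genes 10.4% had WT groups without overlap. The same held for Lox among the members, whose WT epithelial values were at background and give no level. For Loxl1 the WT difference was 1.59 (95% interval 0.24 to 2.94) and for Mfap5 2.04 (95% interval -1.17 to 5.25), so a rise in WT stroma of several fold was within the error.

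The KO minus WT difference was larger in stroma than in epithelium for 8 of 9 members, but 0 of 9 passed limma's test of that difference, as did 0% of all genes. At an unadjusted p under 0.05 there were 7 of the 9, all but Loxl4 and Mfap5, where 18.1% of all genes had such a p, and the median was 2.38 against -0.06. Eln had the smallest adjusted p among members, at 2.31 ± 0.54 (SE, limma adjusted p = 0.117). It passed without WT tumour 3 (2.87, limma adjusted p = 0.0467), the only setting in which a member did.

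Another 46 genes of fibre assembly, crosslinking and breakdown were taken from a list, also chosen with earlier results of these data known, and 40 of them were measured. In stroma 7 of the 40 were higher in KO than WT and 0 lower, against 3.52% and 2.94% of all genes, with a median log2 difference of 1.29 against -0.01 over all genes and 35 of 40 positive. Those with the smallest p were Bmp1, whose protease removes the propeptide of lysyl oxidase (2.43 ± 0.49, SE, limma adjusted p = 0.0206), Efemp2, whose product fibulin-4 brings lysyl oxidase to tropoelastin (2.20 ± 0.45, limma adjusted p = 0.0216), the fibrillin gene Fbn2 (1.37 ± 0.31, limma adjusted p = 0.0307) and Ctsa, whose product is part of the elastin receptor complex (1.35 ± 0.32, limma adjusted p = 0.0351). The other 3, named after their values were seen, were Mfap2, a microfibril glycoprotein gene (2.99), the latent TGF-beta binding protein gene Ltbp4 (1.82) and Fbln5, the gene of the elastin-binding fibulin-5 (3.11). By role, 5 of 18 microfibril and fibre proteins passed as higher, and 1 of 5 genes of propeptide and procollagen processing. So did 1 of 3 receptor genes, 0 of 7 collagens and lysine-modifying enzymes and 0 of 4 elastin-degrading enzymes. Yet all of these 7 and 4 were positive, with median log2 differences of 1.06 and 1.28. They are not shown to be unchanged. None of the 3 TGF-beta genes, whose products microfibrils hold, was above 0. The count of 7 fell to 0 without KO stroma array 1, without WT stroma array 1 or with median centring, to 1 without WT stroma array 2, to 2 with Agilent's signals, to 3 without KO stroma array 4 or with the stromal arrays alone, and to 4 without KO stroma array 3, with no filter or with tumour as a random block, and rose to 10 without WT stroma array 3.

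**Figure D4:**
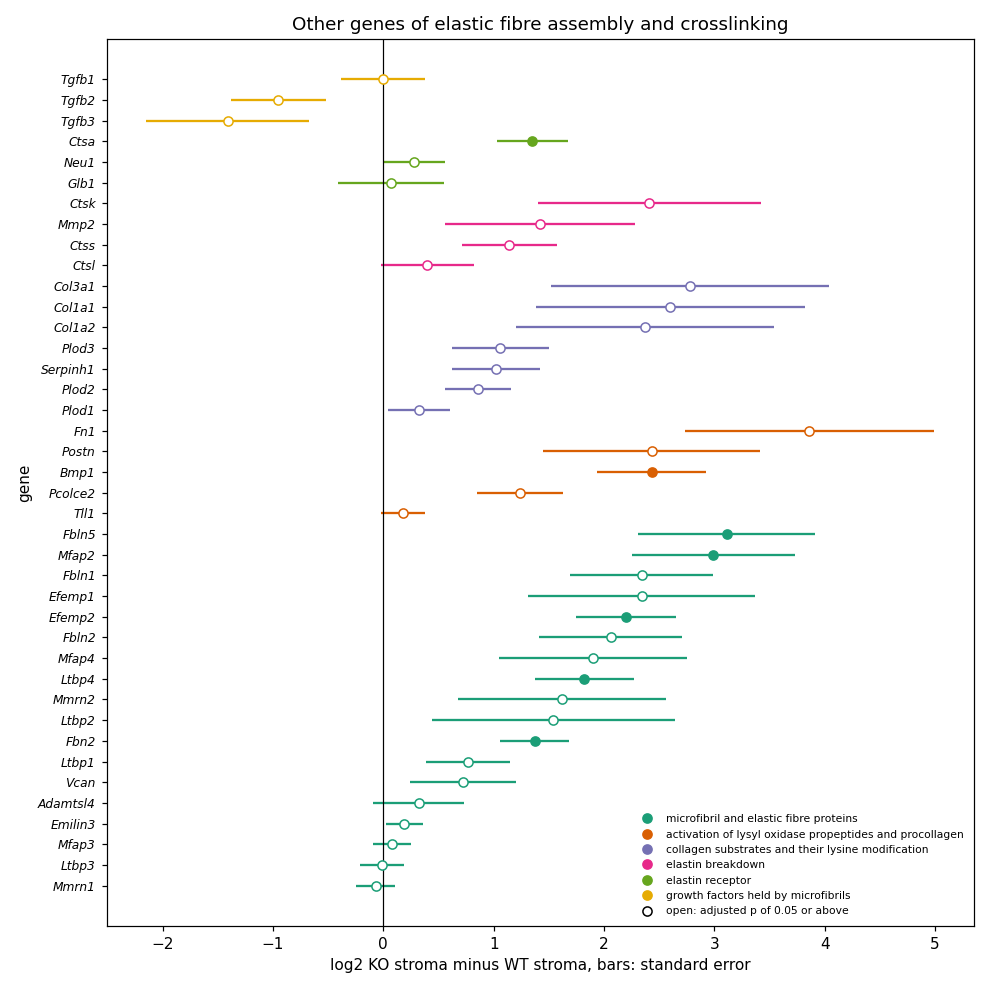
Points give KO stroma minus WT stroma on the log2 scale with the standard error for the 40 measured genes of the list, coloured by role and filled where the limma adjusted p was under 0.05. The 7 filled points all lie right of 0, and the TGF-beta genes are at or left of 0.

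Between compartments 16 of the 40 were higher in stroma and 0 lower over all 6 tumours, where 8.44% of all genes were higher. The smallest p among them were those of Ctss, an elastin-degrading cathepsin gene (1.62, limma adjusted p = 0.0118), the lysyl hydroxylase gene Plod3 (0.87, limma adjusted p = 0.0138), the fibronectin gene Fn1 (4.46, limma adjusted p = 0.0162) and Mmrn1, a gene of the emilin family. Mmrn1 was above background on 1 of the 6 epithelial arrays and passed the filter through stroma, so its difference has no exact size. Within KO tumours 25 were higher and 0 lower, where 10.2% of all genes were higher, led by Plod3 (1.82, limma adjusted p = 0.00351), Efemp2 (2.76, limma adjusted p = 0.00899), Ctss (2.14, limma adjusted p = 0.0117) and Neu1 (0.93, limma adjusted p = 0.0122), whose product is the sialidase of the elastin receptor. The 25 include Mmrn1 and Pcolce2, above background on no KO epithelial array, and Efemp1, above it on 1 and also among the 16. Named here for their dimness, these genes have differences of no exact size. The 16 became between 1 (without WT tumour 1) and 19 when a tumour was left out (2, 7 and 5 without KO 1, 3 and 4), and the 25 became 2, 9 and 5 without KO tumours 1, 3 and 4. Within WT tumours 0 of 40 passed limma's test, 4 having an unadjusted p under 0.05, as did 8.78% of all genes. The smallest p were those of Mmrn1, above background on 1 of the 3 WT epithelial arrays, and Ctss (1.10, limma adjusted p = 0.498). Between genotypes in epithelium 0 of 40 passed limma's test, 1 having an unadjusted p under 0.05, against 8.06% of all genes. It was Fbn2 (1.07, limma adjusted p = 0.613), followed by Emilin3 (0.35, limma adjusted p = 0.641). The genotype difference between compartments passed limma's test for 0 of 40, 11 having an unadjusted p under 0.05, against 18.1% of all genes, with Plod3 (1.91, limma adjusted p = 0.0645) and Serpinh1, a collagen chaperone gene (1.58, limma adjusted p = 0.0998), nearest.

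Marker genes of some cell types also differed between KO and WT stroma, some higher and some lower in KO. The mean over 7 fibroblast markers was 3.0 to 3.37 in KO stroma and 0.71 to 1.74 in WT stroma, and -1.69 to 1.34 in epithelium. The mean over 7 of 8 luminal epithelial markers was 0.80 to 1.78 in KO stroma and 2.69 to 3.61 in WT stroma, against 3.05 to 3.92 in epithelium, so that WT stroma overlapped the epithelial samples, and Cdh1 did not pass the filter. In limma's test of KO against WT stroma 3 of 7 fibroblast markers were higher (Fap, Col6a2 and Pdgfra), 4 of 7 luminal markers lower (Krt8, Elf5, Cldn3 and Krt18) and 2 of 6 macrophage markers higher (Aif1 and C1qc), against 3.52% of all genes higher and 2.94% lower. Macrophage means were 3.80 to 4.36 in KO and 1.52 to 3.0 in WT stroma. The remaining lists gave 0 calls of 4 basal, 6 smooth muscle and pericyte, 5 endothelial, 5 adipocyte and 3 T cell genes there. Their means were nonetheless apart without overlap for basal markers (3.57 to 3.90 in KO and 4.04 to 4.72 in WT stroma), smooth muscle and pericyte markers (0.52 to 1.59 and 1.66 to 2.18) and endothelial markers (1.68 to 2.21 and 0.97 to 1.47). They overlapped for adipocyte markers (1.94 to 6.40 and 2.11 to 2.99) and T cell genes (-1.52 to 0.64 and -1.03 to 4.29). The signal of the brighter Wnt1 probe was lower in KO stroma by a log2 difference of -3.53 (limma adjusted p = 0.00085). The part of these differences in the members' values was not tested, and in such bulk samples fewer cells of a type and less RNA per cell cannot be told apart.

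**Figure D5:**
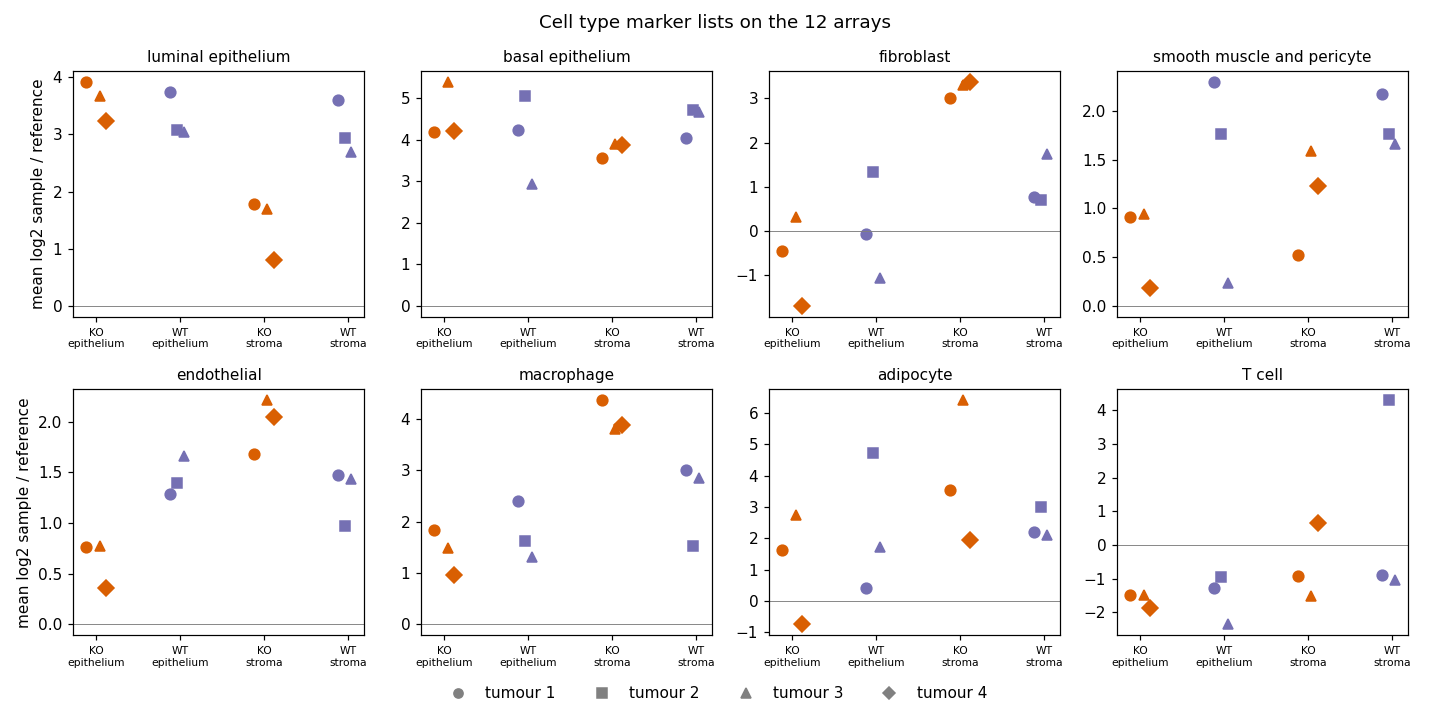
Each panel plots, for every array, the mean log2 ratio of sample over reference over the measured genes of a marker list, with KO in orange and WT in violet and shapes for tumour numbers. Fibroblast and macrophage means are highest in KO stroma, luminal means are lowest there, and WT tumour 2 stands out by its T cell mean of 4.29 in stroma.

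The genes nearest to a member in pattern were found by the root mean square difference of centred log2 ratios over the 12 arrays, among all other tested genes, for the 4 members that varied most. For Mfap5 (SD 2.75 over the arrays) they were Svep1 (0.49), Fn1 (0.64) and Adamts2 (0.64). For Emilin2 (SD 2.30) they were Gstm2 (0.51), Adamts2 (0.52) and Pf4 (0.53). For Loxl2 (SD 2.12) they were Cd34 (0.38), Ccdc80 (0.43) and Bicc1 (0.45), and for Loxl1 (SD 1.90) Sod3 (0.36), Gstm2 (0.39) and Cfp (0.41). Among the members themselves Loxl1 and Emilin2 differed least (0.51), followed by Loxl1 and Fbn1 (0.53) and Lox and Loxl3 (0.54), whereas Loxl4 and Mfap5 differed most (2.53). These distances are descriptions over 12 arrays that share slides and tumours. Loxl4 was above background on 3 arrays and Lox on 5, all of them stromal for Lox, so their distances rest largely on values at background.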

How the data were processed

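RNA of 12 laser-captured samples (Cy3) was hybridised against a universal mouse reference (Cy5) with no dye swap, per the labels' protocols. Per the file headers, Agilent Feature Extraction 10.7.3.1 read the 2-colour scans, and the deposited files give each spot's median and local background intensity, processed intensity, 0 or 1 quality flags and, as a log10 ratio, Cy5 over Cy3. Every value in the text is turned to sample over reference, opposite to that ratio.

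The sources used here do not say how the log2 values of the deposited table were made. Its 6 epithelial columns ran as reference over sample (r between -0.925 and -0.895 with the array's processed ratio over spots, which are not independent), had medians from -0.05 to 0.02 and served as an alternative with the sign turned. Its 6 stromal columns went with no array (r at most 0.00734 in size, medians from -0.01 to 0.05), so their order, scale and direction stay unknown and they were not used.

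The following was computed here. Normexp (offset 50) on median signals and local background and loess within each array were run in limma 3.58.1 under R 4.3.3, with control spots at weight 0. Of 62976 spots 3671 are controls. Non-uniform spots were set missing (211 on WT epithelium 3, at most 16 elsewhere), probes with a missing array were dropped and spots of a probe were averaged. Of 55681 probes 27235 were named through the unversioned accession and a RefSeq table of GRCm38.p6. The headers name another build, so no probe coordinates are given. Probes needed a Cy3 signal well above background on 3 or more of the 12 arrays, the brightest kept probe (the standing probe) stood for a gene, and p-values were adjusted by Benjamini-Hochberg over 13275 genes, with a threshold of 0.05. The number of arrays limits the precision.

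For KO against WT, 1 fit took the 4 group means. Compartments, and the genotype effect's difference between them, entered a model in which tumour was a fixed block, the pairing coming from genotype and number in the titles. Within a tumour, the 2 compartments' deviations from their group means correlated at 0.09, 0.29 and 0.23 (KO 1, 3, 4) and 0.46, 0.29 and 0.25 (WT 1, 2, 3). The members and lists were chosen with earlier results of these data known. The text names all members, up to 4 called genes of smallest p per direction and comparison from the list of other fibre genes (the 2 of smallest p where none was called), and the 3 genes nearest in pattern to the 4 members of largest SD. Alternatives were Agilent's processed signals, median centring, Aquantile, no filter or a filter on all 12 arrays, the mean of kept probes, array weights, the stromal or epithelial arrays alone, tumour as a random block (correlation 0.23), with or without a block, the deposited table, and each replicate left out.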

Additional observations from a re-analysis of the deposited data

How the results depend on the processing

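Aquantile leaves the ratios as they are, so it could change nothing. The members higher in KO stroma numbered 3, but 1 with Agilent's processed signals, 1 with median centring and 1 with the filter on all 12 arrays, which leaves Lox, Loxl1, Loxl4 and Fbn1 untested, and 0 to 4 when an array was left out. The 7 higher in stroma over all tumours became 4 with that filter and 5 to 7 with a tumour left out, the 8 in KO tumours 5 and 4 to 8, and the 0 for the difference of the genotype effect 0 to 1. Called members kept their direction in every setting, and the reversals were all of differences that did not pass. Of member values under an alternative, 693 kept direction and call, 38 lost the call, 4 gained it and 42 changed sign. The 693 include settings that could not move the value. These were Aquantile, the mean of kept probes for genes with 1 kept probe, and within-genotype differences with a tumour of the other genotype left out. Between genotypes in epithelium, Lox turned to -0.05 with Agilent's signals, -0.23 with median centring, -0.14 with array weights and -0.12 in the deposited table, Mfap5 to -0.01, -0.25, -1.14 and -0.17, Fbn1 to -0.13, -0.10 and -0.03 with the last 3, and Loxl1 to -0.19 with array weights. Median centring moved the median of all genes there to -0.17. With an array left out the ranges there that crossed 0 were -0.21 to 0.25 for Lox, -1.27 to 0.27 for Loxl2, -0.14 to 0.11 for Loxl4, -0.56 to 0.69 for Emilin2, -0.05 to 0.33 for Fbn1 and -0.69 to 1.16 for Mfap5. Loxl4 in stroma turned to 0.05 with array weights and ranged from -0.32 to 0.10 with an array left out. Its genotype difference between compartments turned to 0.10 with median centring and 0.13 with array weights and ranged from -0.22 to 0.20 with a tumour left out. In WT tumours the ranges were -0.01 to 0.41 for Loxl4 and -0.91 to 0.18 for Eln. The causes were not tested. KO and WT tumours share only the numbers 1 and 3, whose deviations correlated at 0.30 and -0.30 in epithelium and 0.04 and -0.06 in stroma. With so few shared numbers these correlations cannot show whether the numbers pair tumours. Tumours of the same number differ in genotype, and the main fit did not pair them. With the number as a replicate block 3 members passed in stroma and 0 in epithelium as before, Loxl4 turned to 0.11 in both compartments and Emilin2 to 0.44 in epithelium, and the list of other fibre genes had 1 call in stroma. With no replicate block the counts between compartments were 7, 8 in KO and 0 in WT tumours, and 0 for the difference. Dim probes limit Lox in epithelium, Loxl4 and Emilin1.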
